A study of Mus musculus with 4 samples.

Results

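The loci of 6 neutrophil granule proteins were examined in the ATAC-seq data of mouse bone marrow monocytes: Mpo, Prtn3 and Elane, whose products fill the azurophil granules, and Camp, Ngp and Ltf, whose products fill the specific granules. Their members are the 38 peaks, of 57090 in the merged peak set, that overlap 5 fixed windows of GRCm39: for Mpo, Prtn3 with Elane, Camp and Ngp a window of 40 kb, and for Ltf a window of 60 kb. From the start of the first peak to the end of the last, the members cover chr11:87670302-87702635 at Mpo (7 peaks), chr10:79701968-79728879 at Prtn3 and Elane (8 peaks), chr9:109661345-109691954 at Camp (5 peaks), chr9:110236354-110269986 at Ngp (5 peaks) and chr9:110835614-110888768 at Ltf (13 peaks). The windows were set by position, with earlier results of these data known. ATAC-seq uses a transposase that inserts sequencing adapters into accessible DNA, so the count of reads in a peak is a measure of open chromatin. Femur-derived and mandibular-derived monocytes were each represented by 2 libraries of 20000 cells from 2-mo-old male mice, 4 mice pooled per batch. The labels give male mice, whereas the methods of the study give C57BL/6J mice of both sexes. The libraries numbered 1 form batch A and those numbered 2 form batch B, and within a batch both sites came from the same pool of mice. The sample labels call the cells CD11b+, whereas the protocol in the labels isolated monocytes as the unbound fraction after labelling other cells with an antibody cocktail. That protocol gives no share of granulocytes left among the isolated cells.

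Neutrophils acquire their granule proteins in sequence while they mature in the bone marrow. The genes of azurophil granule proteins are transcribed first, at the promyelocyte stage and in granulocyte-monocyte progenitors, and the genes of specific granule proteins follow at the myelocyte stage. Mature monocytes are not known for transcribing the specific granule genes, which is why these loci were read as a check on granulocyte content. In a bulk library, fewer granulocytes and less open chromatin per cell cannot be told apart. The monocyte, B cell, T cell and erythroid genes that would set a scale for this check need an annotation of GRCm39 and were not analysed here.

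Promoter sequences of all 6 genes were matched in RefSeq on GRCm38.p6, an older build than that of the peaks, so they describe the genes and were not laid over any peak. Shown are 4 of them, the neighbouring protease genes Prtn3 and Elane and the specific granule genes Ngp and Ltf, as examples from both granule classes that hold at least 1 match to either of 2 short motifs. Each runs 5′ to 3′ on the strand of the gene, from 250 bases before the start to 50 bases after it, and capitals mark matches on either strand to GAGGAA, the core bound by PU.1, or to TTNNGNAA, a form of the C/EBP site.
Prtn3 (chr10:79879417-79879716, plus strand): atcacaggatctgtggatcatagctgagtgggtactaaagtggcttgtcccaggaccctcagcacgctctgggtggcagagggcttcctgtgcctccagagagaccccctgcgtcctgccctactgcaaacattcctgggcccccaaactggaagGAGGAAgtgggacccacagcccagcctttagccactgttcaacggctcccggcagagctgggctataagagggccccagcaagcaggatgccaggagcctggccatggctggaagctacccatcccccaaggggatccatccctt
Elane (chr10:79886062-79886361, plus strand): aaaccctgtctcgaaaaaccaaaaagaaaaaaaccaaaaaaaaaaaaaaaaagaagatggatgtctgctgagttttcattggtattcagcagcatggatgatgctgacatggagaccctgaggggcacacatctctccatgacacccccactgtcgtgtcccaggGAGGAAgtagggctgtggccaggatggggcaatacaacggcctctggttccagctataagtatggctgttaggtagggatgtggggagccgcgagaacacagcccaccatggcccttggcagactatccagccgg
Ngp (chr9:110419558-110419857, plus strand): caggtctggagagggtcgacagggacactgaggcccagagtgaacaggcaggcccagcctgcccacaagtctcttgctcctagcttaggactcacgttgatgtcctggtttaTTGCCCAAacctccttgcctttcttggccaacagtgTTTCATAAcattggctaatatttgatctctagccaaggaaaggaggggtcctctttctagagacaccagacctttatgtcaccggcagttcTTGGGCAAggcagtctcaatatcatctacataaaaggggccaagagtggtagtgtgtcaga
Ltf (chr9:111019042-111019341, plus strand): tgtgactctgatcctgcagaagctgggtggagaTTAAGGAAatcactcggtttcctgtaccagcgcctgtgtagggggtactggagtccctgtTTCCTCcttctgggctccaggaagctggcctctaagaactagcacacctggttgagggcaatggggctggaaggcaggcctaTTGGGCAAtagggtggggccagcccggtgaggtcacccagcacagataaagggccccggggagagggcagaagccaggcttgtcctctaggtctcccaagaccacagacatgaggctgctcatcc

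PU.1 is the myeloid master regulator, and C/EBP factors drive granulocyte maturation. GAGGAA was found in 4 of the 6 promoters, in all 3 azurophil genes and in Ltf, and in 28.3% of the 32851 promoters of the table. Its match began 95 bases before the start of Prtn3 and 85 bases before that of Elane, and Mpo had 2 matches, at 247 and 224 bases before its start. TTNNGNAA was found in 2 promoters, with 3 matches in Ngp and 2 in Ltf, against 40.7% of all promoters. No match to TTNNGNAA overlapped one to GAGGAA. In Ltf, both AATC matches overlapped the TTNNGNAA match that began 217 bases before the start, and an AACNG match overlapped GAGGAA. The RUNX core TGTGGT was found in Ltf alone (16.8% of all promoters), AACNG, a form of the MYB site, in all 6 (80.3%), and AATC, the core of the GFI1 site, in Mpo and Ltf (73.1%). Camp held neither of the motifs in capitals within this window of 300 bases. The GC content of the 6 promoters ranged from 50.7% to 60.7%, around the median of 52.7% for all promoters. These matches describe letters in the sequence and say nothing of binding in these cells.

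Total counts in peaks ranged from 27464565 to 75294068 per library. Femur replicate 2, the deepest library, stood apart from the others across the whole peak set. Over all peaks, its log2 level deviated from the average of the rest with an SD of 0.419, against 0.232 to 0.318 for each other library. At the granule loci it lay above the mean of the other 3 libraries in 29 of 38 peaks (76.3%, against 51.4% of all peaks), by a median of 0.30 on the log2 scale, against 0.011 over all peaks. Values without this library are therefore given beside the results that it moved.

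The granule loci held many peaks of ordinary height. Before any normalization, the 38 peaks together took 0.0539% (95% Wilson interval 0.0532% to 0.0545%) and 0.0599% (0.0594% to 0.0605%) of all counts in femur replicates 1 and 2. In mandible replicates 1 and 2 they took 0.0481% (0.0473% to 0.0488%) and 0.0482% (0.0474% to 0.0490%). Both femur libraries lay above both mandible libraries. These intervals cover counting error only, and since both reads of a fragment could be counted they are narrower than the number of fragments would give. Shares of total counts are scaled by library size alone. On that scale the log2 fold change of mandible against femur was negative in 67.9% of all peaks. Its median was -0.12 over all peaks, against -0.26 in the members. Single members had from 51 to 9753 counts in a library.

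Peak length had a median of 426 bp in the members and 364 bp in all peaks, and ranged from 157 to 6151 bp. Levels are given as loess-normalized CPM, counts scaled to a common library size with a correction that depends on the mean level of the peak, and library pairs are always given in the order replicate 1 and replicate 2. Per kb of peak, which allows peaks of different length to be compared, the members had a median of 16.5 CPM, against 19.5 for all peaks. 15 of the 38 lay above the median of all peaks and the highest reached percentile 87.2. The 40 kb windows held from 5 to 8 peaks, against a median of 2 in the 20902 tiles of 40 kb that held any peak, and the 60 kb window of Ltf held 13, against a median of 3 in 16459 tiles of 60 kb. Summed over its peaks, the Ngp window reached 203 CPM and surpassed 97.6% of 40 kb tiles. The Ltf window reached 149.6 CPM (above 90.0% of 60 kb tiles), the Prtn3-Elane window 72.4 CPM (77.3% of 40 kb tiles), the Camp window 59.2 CPM (71.6%) and the Mpo window 40.0 CPM (60.8%). Every member had counts in all 4 libraries.

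**Figure D1:**
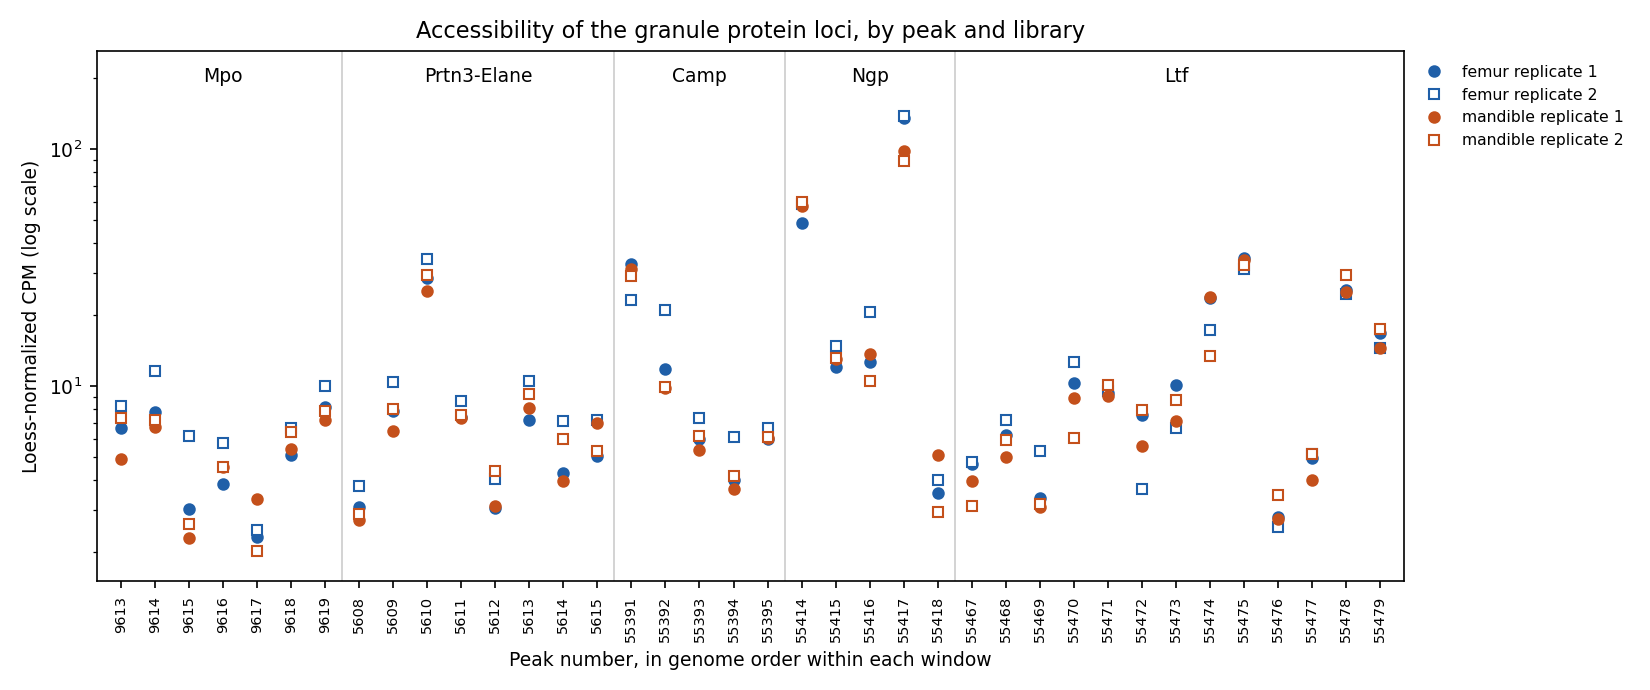
Loess-normalized CPM (log axis) of the 38 peaks of the granule loci in each of the 4 libraries, ordered by genome position within each window. Filled circles are batch A and open squares batch B, blue femur and orange mandible. Peak_55417 in the Ngp window was the highest member, from 88.8 to 138 CPM, with both femur libraries above both mandible libraries, and femur replicate 2 was the highest library in most peaks of the Mpo and Prtn3-Elane windows.

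The lowest unadjusted p-value of the members by edgeR, for mandibular-derived against femur-derived monocytes, fell in the window of Ngp. This gene encodes neutrophilic granule protein, a specific granule protein related to the cathelicidins. Peak_55417 (chr9:110248467-110254617), a peak of 6151 bp, was the 28th longest of the 57090 peaks and the highest member by level, although per kb it lay close to the middle of all peaks (18.7 CPM per kb, percentile 46.3). Its level was 135.8 and 138 CPM in the femur libraries and 98.4 and 88.8 CPM in the mandible libraries. Both mandible libraries thus lay well below both femur libraries, which were nearly equal. The mean was 137 ± 1.73 CPM (SD, n = 2) in femur and 93.6 ± 6.82 CPM (SD, n = 2) in mandible, 0.683 times the femur level. The log2 fold change was -0.55 (standard error 0.10, 95% interval -0.76 to -0.34), and its unadjusted p of 3.4e-05 in edgeR's quasi-likelihood test was the 13th lowest of all peaks. After Benjamini-Hochberg adjustment over all peaks the p-value was 0.136, so that this difference did not pass the threshold of 0.05. With batch as a replicate block, which compares the sites within the same pooled mice, the log2 fold change was also -0.55. Its adjusted p was 0.00125 by edgeR, past the threshold, in a fit that passed 57 of all peaks, against 4 without the block. Deviations from the site means had a correlation of -0.167 between same-numbered libraries. Batch A gave a log2 difference of -0.46 and batch B of -0.64.

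The call at Peak_55417 depended on the normalization. Under TMM normalization, which applies 1 factor to each library, its log2 fold change was -0.33 (adjusted p = 0.935 from edgeR), and with the block added -0.33 (adjusted p = 0.377). With DESeq2 it was -0.32 (adjusted p = 0.999). The femur and mandible libraries did not overlap under loess, TMM, library size or DESeq2 scaling, with 132.5 and 121.9 CPM in femur against 109 and 93.3 CPM in mandible under TMM. Under loess, the size of the difference did not rest on femur replicate 2, as the log2 fold change without it was -0.53. It was -0.55 without femur replicate 1, -0.63 without mandible replicate 1 and -0.49 without mandible replicate 2. Each of these fits leaves a lone library at a site, so no spread was measured there. Wide peaks as a class differed in both directions. Among the 75 peaks longer than 4000 bp, of which Peak_55417 is the only member, the median log2 fold change was 0.012. At an unadjusted p-value under 0.05 by edgeR, 10 (13.3%) were lower and 15 higher, where 1.10% of all peaks were lower and 1.61% higher. Low p-values were thus more frequent among wide peaks than over all peaks.

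The other 4 peaks of the Ngp window had overlapping sites. Peak_55414 (chr9:110236354-110237850), with the highest level per kb of all members at 37.6 CPM per kb, had 48.8 and 58.7 CPM in femur and 57.4 and 60.0 CPM in mandible, so that the sites overlapped (log2 fold change 0.13, 95% interval -0.15 to 0.40). Peak_55416 (chr9:110244244-110244946) had 12.6 and 20.5 CPM in femur and 13.7 and 10.5 CPM in mandible, where femur replicate 2 alone was high (log2 fold change -0.46, 95% interval -0.97 to 0.059). Peak_55415 had a log2 fold change of -0.035 and Peak_55418 of 0.087. The sum over the window was 213 and 236 CPM in femur and 188 and 175 CPM in mandible, a log2 ratio of -0.31 with loess, -0.15 with TMM and -0.14 with DESeq2 size factors. With loess and without Peak_55417 the log2 ratio was 0.0068. In RefSeq on GRCm38.p6, the protein-coding neighbours of Ngp are Ptpn23 on the side of lower coordinates and Klhl18 on the other, and no peak was assigned to a gene within a window.

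**Figure D2:**
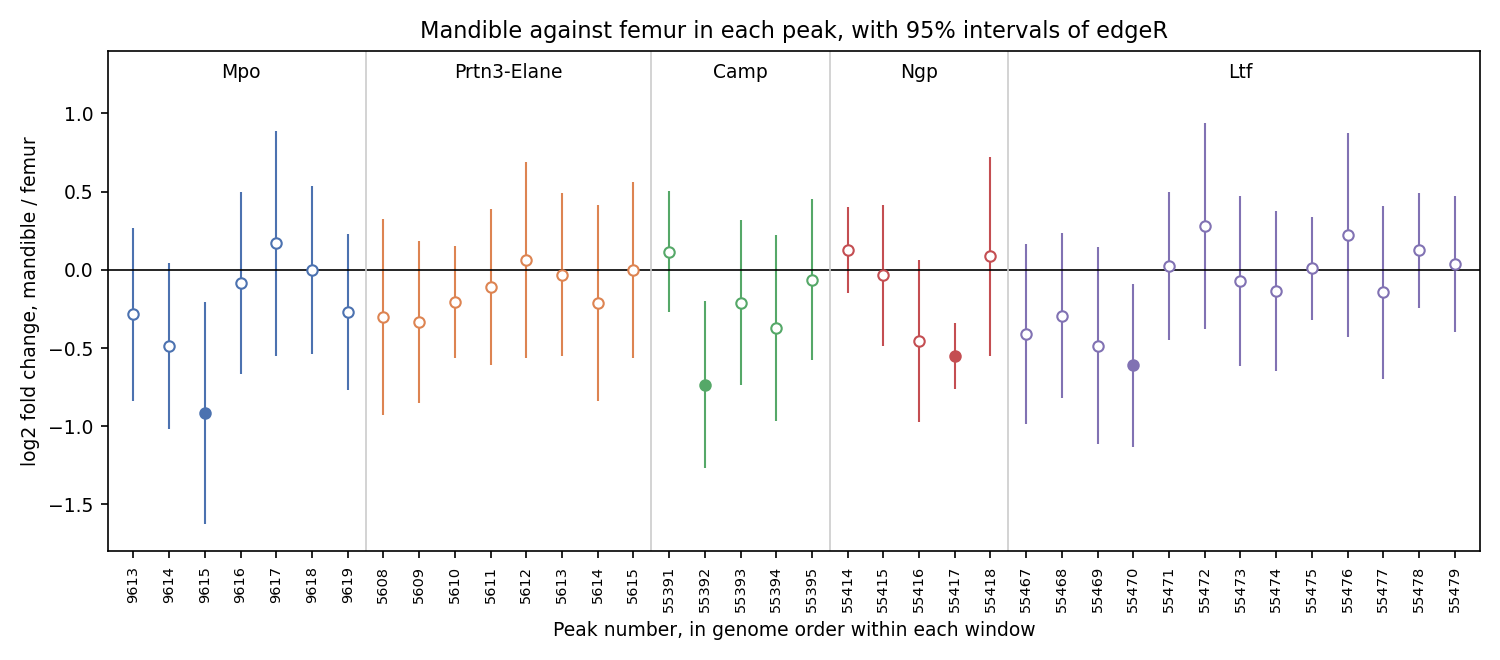
Log2 fold change of mandible against femur for each of the 38 peaks, ordered by genome position within each window, with 95% intervals from edgeR that are not adjusted for the number of peaks. Filled points have an unadjusted p-value under 0.05. These 4 points are all below 0, 1 each in the Mpo, Camp, Ngp and Ltf windows, and Peak_55417 has the narrowest interval among them.

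No member passed an adjusted p-value of 0.05 in edgeR (0 higher and 0 lower of 38). Of all peaks 0.00701% passed it, 0.00525% higher and 0.00175% lower. DESeq2 also called 0, with no adjusted p-value for 12 members. At an unadjusted p-value under 0.05, 4 members (10.5%) were lower and 0 higher by edgeR, where 1.10% of all peaks were lower and 1.61% higher. DESeq2 gave 4 lower and 0 higher as well, where 687 of the 57090 peaks were lower and 919 higher. Without femur replicate 2, the log2 fold changes of the 4 lower members of edgeR were smaller in size. They were -0.27 at Peak_9615, -0.23 at Peak_55392, -0.45 at Peak_55470 and -0.53 at Peak_55417. The log2 fold change was negative in 27 members (71.1%) and in 50.9% of all peaks, with a median of -0.12 in the members and -0.0044 in all peaks, and it ranged from -0.92 to 0.28. Without femur replicate 2 the median was -0.065 in the members and 0.0078 in all peaks, and 23 members were negative, where this held for 48.2% of all peaks. In 10 members (26.3%) both mandible libraries were below both femur libraries, where this held for 13.8% of all peaks, and in 0 members both were above, where this held for 13.3%. Without femur replicate 2, both mandible libraries were below femur replicate 1 in 13 members (34.2%, against 28.5% of all peaks) and above it in 8 (21.1%, against 28.7%). Peaks of a window lie side by side and are not independent, so these shares are given as a description. Log2 fold changes of single members had a median standard error of 0.25, which sets the precision of these values.

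Other fits changed which members passed the adjusted threshold. With the replicate block, Peak_55417 was the 1 member past it, lower in mandible, where 0.0175% of all peaks were lower and 0.0823% higher. With the block and TMM 0 members passed (0.00876% of all peaks lower, 0.275% higher), and with the block and library size alone 0 passed (0.0105% lower, 0.0841% higher). Without femur replicate 2 only Peak_55417 passed (0.0193% lower, 0.0245% higher). Without femur replicate 1, which leaves the library that stood apart as the only femur library, Peak_9615, Peak_55392, Peak_55416 and Peak_55417 were lower, where 0.958% of all peaks were lower and 3.75% higher. With library size alone, 8 members were lower at an unadjusted p below 0.05, where this held for 4.53% of all peaks.

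Among the azurophil granule genes, Mpo encodes myeloperoxidase, which makes hypochlorous acid from hydrogen peroxide. The 7 peaks of its window had a sum of 36.8 and 50.9 CPM in the femur libraries and of 34.4 and 38.0 CPM in the mandible libraries. The mandible libraries lay near femur replicate 1, and femur replicate 2 alone was high. The log2 ratio of mandible to femur was -0.28, with -0.10 in batch A and -0.42 in batch B, and it was -0.017 without femur replicate 2. The peak with the most counts was Peak_9614 (chr11:87680914-87681273). It had 7.74 and 11.6 CPM in femur and 6.71 and 7.17 CPM in mandible, with no overlap between the sites (log2 fold change -0.49, 95% interval -1.02 to 0.046, adjusted p = 1.0 by edgeR). Its log2 fold change was -0.15 without femur replicate 2. Peak_9615 (chr11:87684222-87684646) had the lowest level per kb of all members, 8.29 CPM per kb. Its level was 3.02 and 6.16 CPM in femur and 2.28 and 2.63 CPM in mandible, with a log2 fold change of -0.92 (95% interval -1.63 to -0.21), an unadjusted p of 0.0142 and an adjusted p of 1.0 by edgeR. Without femur replicate 2 its log2 fold change was -0.27. In RefSeq on GRCm38.p6, the nearest protein-coding genes beside Mpo are Tspoap1 and Lpo, which encodes lactoperoxidase.

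Prtn3 and Elane encode proteinase 3 and neutrophil elastase, serine proteases of the azurophil granule, and lie next to each other, with Plppr3 before them and Cfd after them. The 8 peaks of their window summed to 66.7 and 86.0 CPM in femur and to 64.0 and 72.8 CPM in mandible. Here too femur replicate 2 was the highest library, and the sites overlapped. The log2 ratio was -0.16, with -0.060 in batch A and -0.24 in batch B, and it changed sign to 0.041 without femur replicate 2. The largest peak, Peak_5610 (chr10:79713052-79714212), had 28.7 and 34.3 CPM in femur and 25.3 and 29.3 CPM in mandible (log2 fold change -0.21, 95% interval -0.57 to 0.15, adjusted p = 1.0 by edgeR), and its log2 fold change was -0.066 without femur replicate 2. Femur replicate 2 lay above the mean of the other libraries in 8 of the 8 peaks. No peak of this window had an unadjusted p-value under 0.05.

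Among the specific granule genes, Camp encodes the cathelicidin antimicrobial peptide. The 5 peaks of its window summed to 60.5 and 64.3 CPM in femur and to 56.2 and 55.6 CPM in mandible. The sites did not overlap, and the log2 ratio was -0.16, with -0.11 in batch A, -0.21 in batch B and -0.11 without femur replicate 2. The 2 highest peaks behaved differently. Peak_55391 (chr9:109661345-109662416) had 32.7 and 23.2 CPM in femur and 31.3 and 29.2 CPM in mandible, so that femur replicate 2 was the lowest library (log2 fold change 0.12, 95% interval -0.27 to 0.50). Peak_55392 (chr9:109678314-109678890) had 11.8 and 21.0 CPM in femur and 9.87 and 9.92 CPM in mandible, with femur replicate 2 far above the other libraries. Its log2 fold change was -0.73 (95% interval -1.27 to -0.20, unadjusted p = 0.0098, adjusted p = 1.0 by edgeR) and -0.23 without femur replicate 2. Nme6 and Cdc25a are the protein-coding neighbours of Camp in RefSeq on GRCm38.p6.

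Ltf encodes lactotransferrin, an iron-binding protein. Its 13 peaks summed to 160 and 145 CPM in femur and to 147 and 146 CPM in mandible, a log2 ratio of -0.056. It was -0.12 within batch A, 0.015 within batch B, -0.12 without femur replicate 2 and 0.023 without femur replicate 1. The mandible libraries fell between the femur libraries, of which femur replicate 1 was the higher. Peak_55475 (chr9:110874579-110875862), the peak with the most counts, had 34.9 and 31.3 CPM in femur and 34.2 and 32.3 CPM in mandible (log2 fold change 0.0084, 95% interval -0.32 to 0.34). The first 4 peaks of the window by position had log2 fold changes between -0.61 and -0.29, with no overlap between the sites, and the other 9 between -0.14 and 0.28, all with overlap, a split noted after the values were seen. Peak_55470 (chr9:110848069-110848656), the fourth of the window, had 10.4 and 12.6 CPM in femur and 8.94 and 6.07 CPM in mandible, with a log2 fold change of -0.61 (95% interval -1.13 to -0.089), an unadjusted p of 0.0244 and an adjusted p of 1.0 by edgeR. It was -0.45 without femur replicate 2. Peak_55472 moved apart between batches, with 7.54 and 3.67 CPM in femur and 5.58 and 7.94 CPM in mandible, a difference of -0.44 in batch A and of 1.11 in batch B. The nearest protein-coding genes beside Ltf are Rtp3 and Ccrl2.

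**Figure D3:**
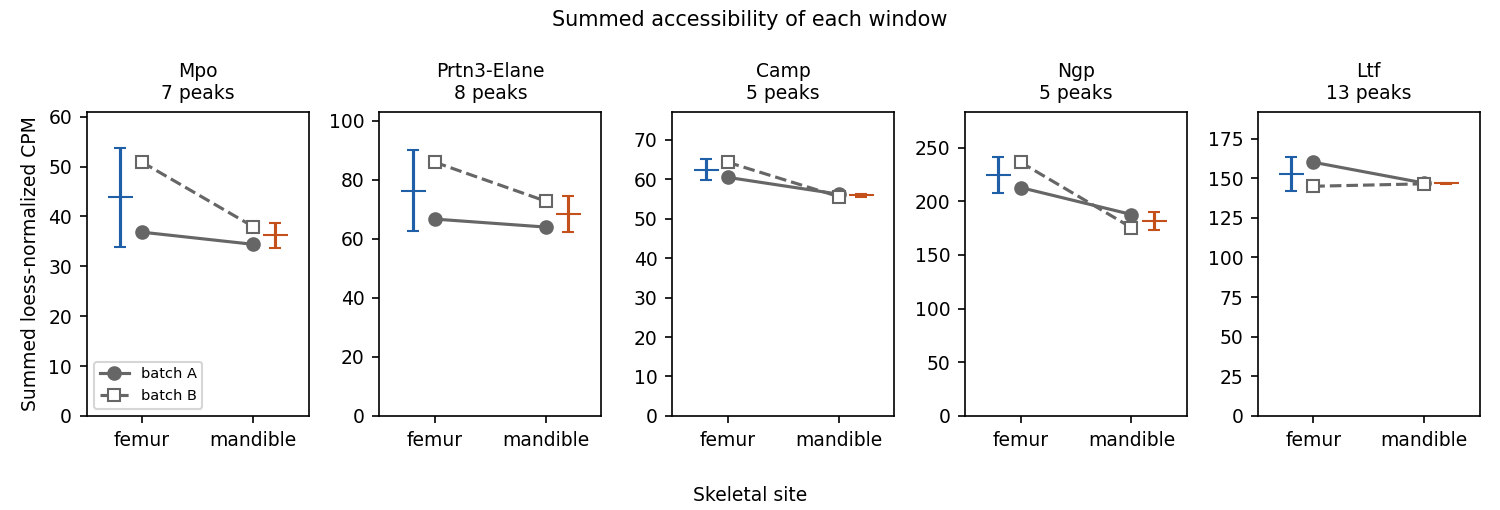
Loess-normalized CPM summed over the peaks of each window, by skeletal site. Lines join the libraries of 1 batch, and coloured bars give the mean and SD of the 2 libraries of a site. All axes start at 0 and differ in range. In the Camp and Ngp windows both mandible libraries lie below both femur libraries, in the Mpo and Prtn3-Elane windows mandible replicate 2 lies above femur replicate 1, and in the Ltf window the mandible libraries lie between the femur libraries.

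Summed over all 38 peaks, the level was 537 and 582 CPM in femur and 489 and 488 CPM in mandible, 0.873 times the femur mean and a log2 ratio of -0.20. It was 0.911 times the femur level without femur replicate 2, a log2 ratio of -0.13. The mandible libraries were lower in both batches, by -0.13 in batch A and -0.25 in batch B. With 2 libraries against 2, the exact two-sided permutation test cannot give a p below 0.333, and it gave p = 0.333 for this sum and for the Camp and Ngp windows. The same exact test gave p = 0.667 for the Mpo and for the Prtn3-Elane window and p = 1.0 for the Ltf window. At this number of libraries the test cannot show whether the smaller sum in mandible exceeds the spread between them.

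Within batches, 17 members (44.7%) were lower in mandible in both batches, where this held for 22.0% of all peaks, and 2 (5.26%) were higher in both, where this held for 20.3%. The remaining 19 changed direction between batches, 9 of them in the Ltf window. Over the members the median log2 difference was -0.12 for batch A against -0.25 for batch B. Refitted without femur replicate 2, mandible replicate 1 was below femur replicate 1 in 26 members (68.4%, against 49.4% of all peaks). Batch B contains femur replicate 2, which lay above the mean of the other libraries in 29 of 38 members. In the Ltf window this held for 6 of 13 peaks. The reason for the difference between batches was not tested.

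**Figure D4:**
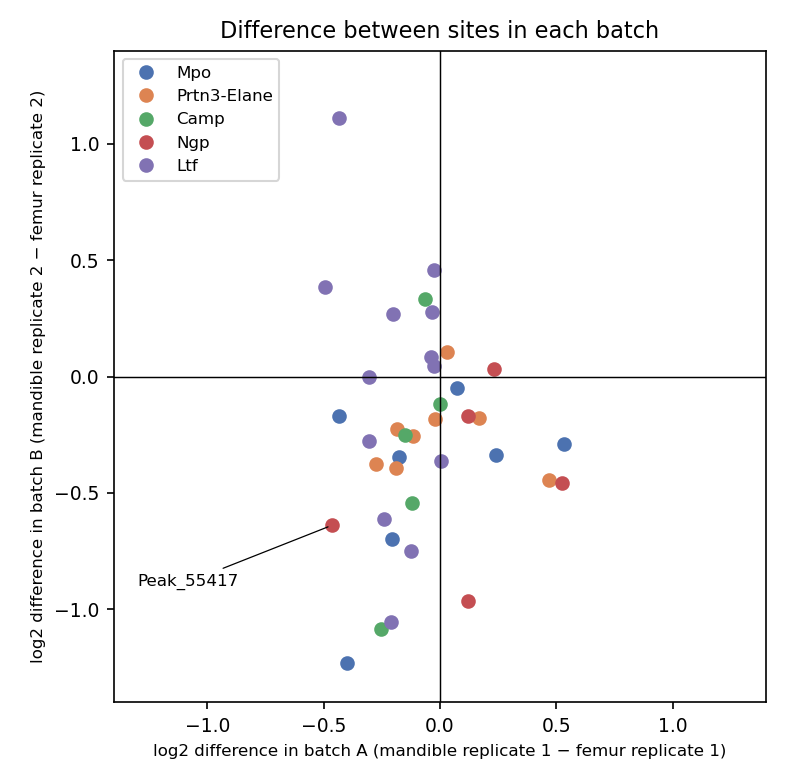
Log2 difference between mandible and femur for each of the 38 peaks in batch A (horizontal axis) and batch B (vertical axis), coloured by window. The lower left part holds the 17 peaks that were lower in mandible in both batches, among them Peak_55417, and the upper right part holds 2 peaks.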

How the data were processed

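ATAC-seq libraries of femur-derived and mandibular-derived monocytes were compared, 2 per skeletal site. According to the methods and the file headers, the authors used Trimmomatic for trimming and Bowtie2 for alignment to GRCm39. They discarded duplicates and reads with a mapping quality under 20, ran Genrich on each pair of duplicates, merged the peaks and counted reads in them with featureCounts 2.0.6. The deposited values are raw counts over this merged peak set, which holds no peak calls of single libraries, so peak presence in a single library cannot be compared.

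Counts were fitted over all 57090 peaks in R 4.3.3 with edgeR 4.0.16 (glmQLFit, glmQLFTest), the tools named by the study, with skeletal site as the only term. Offsets came from a loess curve of each library's log count (pseudocount 0.5, scaled to library size) on mean log CPM, fitted with limma 3.58.1. The default filter removed 0 peaks. P-values were adjusted by Benjamini-Hochberg, with a threshold of 0.05. Intervals used standard errors derived from the F statistic. Simulated counts were used to check the fit. Labels put same-numbered libraries in 1 batch of pooled mice, which pairs them, although their deviations from the site means had a correlation of -0.167. Replicates may differ technically as well as between mice.

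Windows were given, and members and lists were chosen with earlier results of these data known. Peaks named by rule are the one with the most counts in each window and those with an unadjusted p-value under 0.05. The rule's peaks at transcription starts and most similar loci could not be found without a GRCm39 annotation. Others were named after their values were seen. Planned comparisons with marker loci, peak GC content and gene-body windows need GRCm39 and were not analysed here.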

Additional observations from a re-analysis of the deposited data

How the results depend on the processing

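Relative to all peaks, the median of the members stayed negative under every alternative run. It was -0.12 with loess, and library size alone moved it to -0.26, where the median of all peaks moved to -0.12. With library size alone 8 members, against 4, were lower at an unadjusted p below 0.05. With the replicate block 1 member, Peak_55417, was past the adjusted threshold, and the block changed no other call of a member or a named peak. Leaving out each library in turn gave from 0 to 4 members lower at the adjusted threshold, the 4 without femur replicate 1. At an unadjusted p-value under 0.05 it gave from 1 to 9 members lower and from 0 to 2 higher, and the median ranged from -0.26 to -0.065. In these fits the lone library of a site is assumed to vary like the others. The number of all peaks under that p-value also rose or fell with the library left out. The member counts alone are therefore no comparison with all peaks. The log2 ratio ranged from -0.50 to -0.017 for the Mpo window, from -0.33 to 0.041 for Prtn3-Elane, from -0.20 to -0.11 for Camp, from -0.37 to -0.23 for Ngp and from -0.12 to 0.023 for Ltf. Camp had -0.25 with library size alone, and Ngp -0.15 with TMM and -0.14 with DESeq2 size factors. The sum over all members ranged from -0.25 to -0.13 over all alternatives run on it. Counts of members without femur replicate 2 by overlap or direction were also chosen after seeing the data. Chosen after seeing the data, Ngp without its widest peak had 0.0068, and the block with library size alone gave a member median of -0.26 and with TMM of -0.15, with 0 members past the adjusted threshold in either. With that block and library size alone, Peak_55417 had a log2 fold change of -0.44 (adjusted p = 0.0814 by edgeR).

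Of 103 combinations of 8 named peaks and 13 alternatives, 93 kept direction and side of the threshold, 5 passed it and 5 changed sign. DESeq2 gave Peak_9615 no adjusted p-value, which is left out of these counts. Those that changed sign were Peak_55391 at -0.12 without femur replicate 2 (0.39 without femur replicate 1), and Peak_55475 at -0.0047 with library size alone, -0.0042 with the block added, -0.068 without femur replicate 2 and -0.032 without mandible replicate 1 (0.093 without femur replicate 1). Peak_9615 and Peak_55392 passed it without femur replicate 1, at -1.33 and -1.09. The adjusted p-value of Peak_55417 ranged from 0.000101 to 1.0 over the alternatives. The cause of these changes was not tested. Alternatives with GC content or gene-body windows were not run because they need GRCm39. Counts as low as 51 limit the smallest peaks.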
